A study of Mus musculus with 419 samples.

Results

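The genes examined here lie on distal chromosome 12 of mouse embryonic stem cells that carry 1 genome of the 129 strain and 1 of the CAST strain. Members were genes that start beyond 80 Mb on chromosome 12 (GENCODE vM21 annotation, mm10). A member had values summing to at least 1000 over both alleles and all cells on its best-covered transcript, and a value in at least 10% of cells. Of 1232 annotated genes beyond that limit, 912 had a row in the tables, 563 had any value and 207 passed both requirements. A further 10 were left out by name (Esrrb, the imprinted RNAs Meg3, Rian, Rtl1 and Mirg, Dlk1, Fos, Hsp90aa1, Srsf5 and proteasome genes), which gave 197 members of 11012 measured autosomal genes. By annotation, 178 members were protein-coding. Members were chosen by their pooled values, and the region was selected on CAST values that were already known to differ between these cells, so the CAST differences below describe it and are not evidence for it. At the edges of the rule, Flrt2 was inside with a sum of 1010 and 4930544I03Rik outside with 984. Dglucy was inside with values in 27.2% of cells and Gm8300 outside with 6.21%. Zfp36l1 was the first member by position (start 80107754) and Sp4 the last (start 118234933).

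In a hybrid cell, reads that cover a base at which the strains differ can be assigned to 1 parental chromosome. Each chromosome copy normally contributes its own share of a gene's RNA, so the RNA of 1 allele can be followed against the amount of that chromosome present. Where the number of copies of a segment differs between cells, most genes inside it are known to change their RNA with copy number, whereas some are buffered by feedback or by limiting factors. Embryonic stem cell lines are known to gain and lose chromosome segments in culture. DNA copy number was not measured here, and "dosage" below means only the RNA level of the region.

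The cells were 419 single cells in G1 phase of the female line F1-21.6 (129Sv-Cast/EiJ), grown without feeder cells on laminin-511 in medium with fetal bovine serum and leukemia inhibitory factor. Single-cell RNA was measured by RamDA-seq, a full-length total RNA method, for a study of transcriptional bursting. All cells received the same treatment, no separate cultures were named, and the 5 sequencing lanes held 80 to 88 cells each. The cells are therefore 1 sample, no test was made between cells, and errors are SDs over the 5 lanes, which cover technical spread and sampling of cells only.

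The defining embryonic stem cell markers were present: Pou5f1 had a value in 100% of cells, Nanog in 96.2% and Zfp42 in 97.1%. Summed embryonic stem cell markers had medians of 2215 in high-CAST and 1967 in balanced cells, 2 kinds of cells defined below. All of them but Sox2 had the higher mean in high-CAST cells, for Tfcp2l1 557 against 321. Summed markers of primitive endoderm had a median of 0 in both, with highest cells at 136 in high-CAST and 34.8 in balanced cells. Those of trophectoderm had medians of 0.975 in high-CAST and 1.01 in balanced cells, with highest cells at 166 and 63.4. Those of fibroblasts had medians of 4.12 in high-CAST and 5.21 in balanced cells, and the highest cells had 455 among high-CAST and 2094 among balanced cells. The 8 embryonic stem cell markers summed to under 0.25 of the median cell in 25 cells, of which 7 were high-CAST (2.38% of them) and 18 balanced (15.1%). Their part in the results was not tested as a cause, and values without these cells are given below for the counts and for the genes whose call or slope they changed most. Deposited totals had medians of 929977 in high-CAST cells and 921766 in balanced cells.

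The cells fell into groups by the 129 share of all members together. A share under 35% (high-CAST cells) was found in 294 cells, and a share of 42% to 58% (balanced cells) in 119 cells. Of the remaining cells, 3 had shares of 35.6% to 38.4%, and 3 had shares of 82.0% to 91.7%. The median 129 share was 26.2% in high-CAST cells and 50.4% in balanced cells. High-CAST cells made up 67.1% to 73.8% of each lane.

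The regional CAST level, the mean of CAST values over members after each gene was set to a mean of 1, averaged 1.23 ± 0.15 in high-CAST cells and 0.451 ± 0.151 in balanced cells (SD over cells, n = 294 and 119), a ratio of 2.74. It ran from 0.499 through a median of 1.22 to 2.04 in high-CAST cells, and from 0.318 through 0.423 to 1.49 in balanced cells. The ranges overlapped through a few cells. At or above the lowest high-CAST cell lay 19 balanced cells, but at or above the second lowest, at 0.901, lay only 2. Those 2 cells reached far into the high-CAST range, and only 13 of 294 high-CAST cells lay above the higher one. The regional 129 level averaged 0.984 ± 0.127 in high-CAST cells and 1.04 ± 0.27 in balanced cells, a ratio of 0.951. The split thus lay almost wholly in the CAST values.

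**Figure D1:**
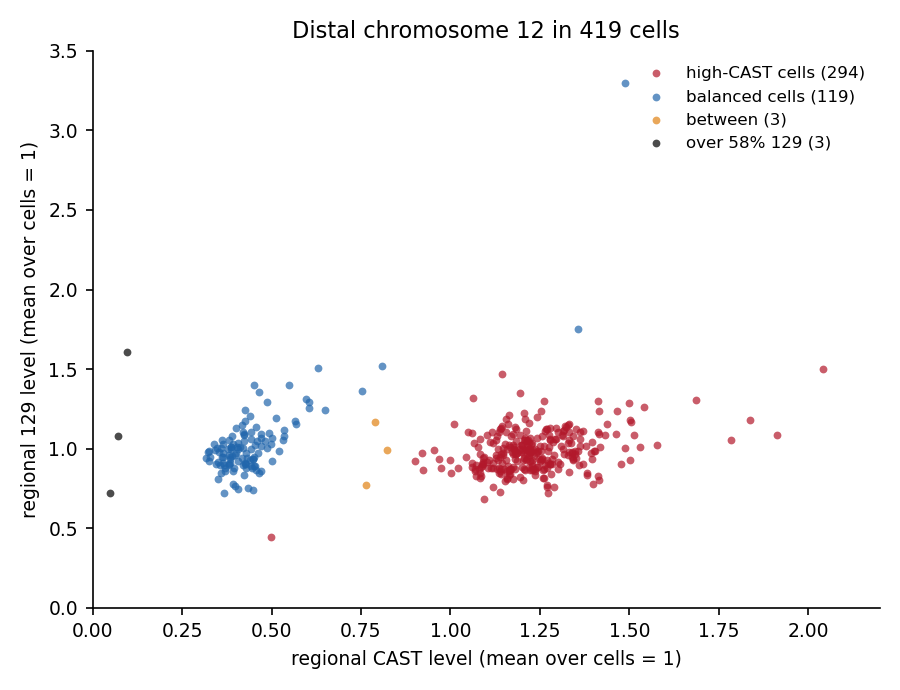
Regional CAST level (horizontal axis) against regional 129 level (vertical axis), each scaled to a mean of 1 over the 419 cells; each point is 1 cell. High-CAST cells (red, mean CAST level 1.23) stand apart from most balanced cells (blue, mean 0.451) along the CAST axis, while both overlap along the 129 axis.

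In most cells with the skew, it ran along the whole region. Members from 80 to 100 Mb (93 genes) and members from 100 Mb on (99 genes) put 399 cells in the same class, 110 of them as balanced and the rest as high-CAST. The other 20 cells were outside both classes in at least 1 stretch, and 0 cells were high-CAST in 1 stretch and balanced in the other. Among those 20 was a high-CAST cell with 37.5% 129 from 80 to 100 Mb and 5.04% from 100 Mb on. Below 70 Mb on the same chromosome, the median 129 share was 53.4% in high-CAST cells and 53.7% in balanced cells. The 3 cells with shares of at least 82.0% also had 87.8% to 91.5% 129 below 70 Mb. Their regional CAST level, over members only, was 0.0473 to 0.0960.

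Promoters are shown for the well-measured members whose CAST level followed the region, because members move together here. RefSeq (GRCm38.p6) listed a promoter, 250 bases before to 50 bases after the start, for all but 36 of 197 members. The best-covered followers were Dync1h1, the heavy chain of the cytoplasmic dynein motor, and Papola, a poly(A) polymerase. Their promoters lie at chr12:110601145-110601444 and chr12:105784447-105784746, both on the plus strand, with CG dinucleotides in capitals.
Dync1h1: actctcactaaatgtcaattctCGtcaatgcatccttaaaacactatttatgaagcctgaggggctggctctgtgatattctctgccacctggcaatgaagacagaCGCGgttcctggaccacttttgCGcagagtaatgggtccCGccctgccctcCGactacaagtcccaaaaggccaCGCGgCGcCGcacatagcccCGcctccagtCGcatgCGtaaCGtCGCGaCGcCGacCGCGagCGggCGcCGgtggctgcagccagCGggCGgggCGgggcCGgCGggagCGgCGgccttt
Papola: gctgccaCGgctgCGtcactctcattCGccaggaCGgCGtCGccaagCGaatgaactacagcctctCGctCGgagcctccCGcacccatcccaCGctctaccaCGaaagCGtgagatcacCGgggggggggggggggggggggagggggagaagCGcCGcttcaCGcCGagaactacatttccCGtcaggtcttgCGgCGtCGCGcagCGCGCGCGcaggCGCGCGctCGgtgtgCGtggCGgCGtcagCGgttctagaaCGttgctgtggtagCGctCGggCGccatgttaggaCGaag

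The Dync1h1 promoter holds 30 CG dinucleotides and the Papola promoter 40. Members had a median of 24 (quartiles 14 and 31), beside 24 (quartiles 17 and 31) in 4777 measured autosomal genes off chromosome 12 and 7 in all 27025 promoters of the table. The letters TATAAA, read on both strands, were in 6.83% of members' promoters, beside 5.92% of the measured genes and 14.2% of all promoters. Both features were close between members and the other measured genes.

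Each gene's response was described by its dosage slope, the least-squares slope over cells of the gene's level, divided by its mean, on the regional CAST level of the other members. A slope of 1 means that the level moved in proportion to the region, and 0 that it did not move with it. The region was selected on CAST values known to differ between these cells, so members' CAST slopes close to 1 follow from that choice. The spread of the CAST slopes and the 129 slopes carry the information. Allele information was present for all but 5 members, of which 147 had a CAST mean of at least 5 per cell and 115 a 129 mean of at least 5. A gene was counted as following when its CAST slope was at least 0.5 and above 0 in each lane.

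Of the 147 measured members, 144 followed (98.0%), beside 41 of 6220 autosomal genes off chromosome 12 (0.659%) and 1 of 113 genes below 70 Mb on chromosome 12 (0.885%), E2f6 with a slope of 0.51. The median CAST slope was 0.97 ± 0.03 (SD over 5 lanes), with quartiles of 0.91 and 1.05, beside a median of 0.01 off chromosome 12. The median ratio of CAST means, high-CAST over balanced cells, was 2.96 ± 0.13, beside 1.01 off chromosome 12, and was between 2 and 3.5 for 111 of 147 members. The 129 slope had a median of 0.06 ± 0.05, beside 0.03 off chromosome 12. The median ratio of 129 means was 0.991 ± 0.042, beside 1.02. For the sum of both alleles the median ratio was 1.98, beside 1.01. With no requirement on the mean, 182 members followed, and all but 10 of those with allele information did. The share off chromosome 12 was not computed for that setting.

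**Figure D2:**
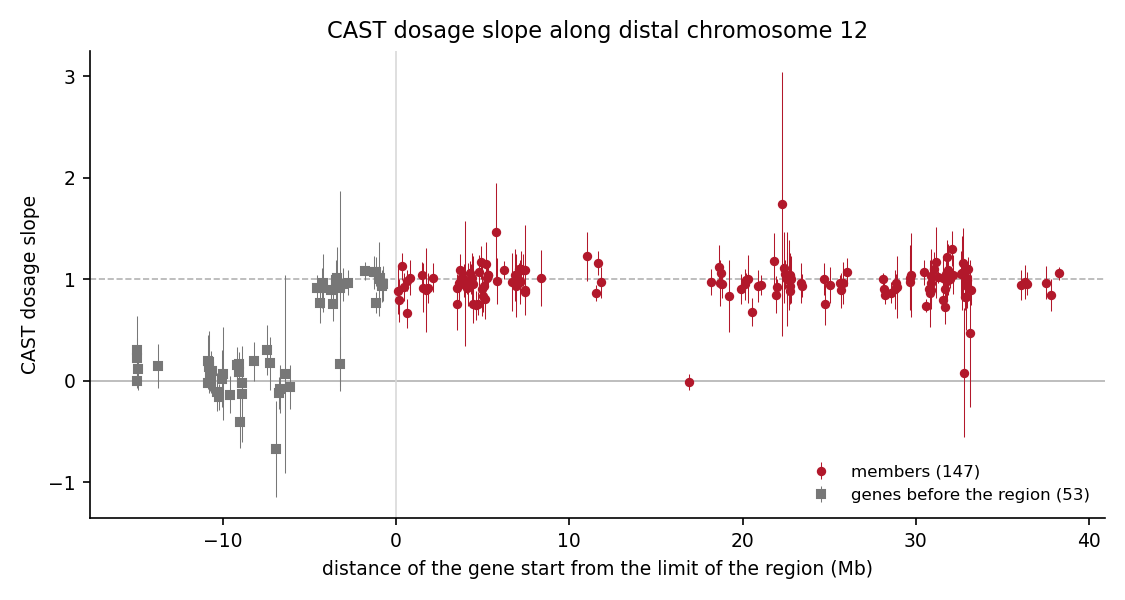
CAST dosage slope of each gene (vertical axis) against the distance of its start from the limit of the region (horizontal axis, Mb); points are members (red) and genes before the limit (grey), bars are SDs over 5 lanes. Members scatter around 1, and genes more than about 5 Mb before the limit scatter around 0.

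The step between genes that did not follow and genes that did was not at the limit of the rule but before it. None of 16 measured genes from 70 to 75 Mb followed, and 19 of 21 from 75 to 80 Mb did, the others being Churc1 (slope 0.17 ± 0.27) and Rab15 (0.91 ± 0.96). Hif1a (73901375 to 73947530), the oxygen-regulated transcription factor, had a CAST slope of -0.06 ± 0.22. The next measured gene, Ppp2r5e (75450881 to 75596245), a regulatory subunit of protein phosphatase 2A, had 0.92 ± 0.12. The step lay between those genes. Within the region, medians of 5 Mb windows ran from 0.95 to 1.07, without a gradient toward the chromosome end, where 6 of 6 measured members beyond 115 Mb followed.

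Followers were found in each of the 7 functional lists examined. All 15 measured members of the transcription and chromatin list followed, as did 17 of 17 for RNA processing and translation and 11 of 11 for DNA repair, replication and mitosis. The same held for 13 of 13 in mitochondria and metabolism, 18 of 18 in secretory pathway and transport, 21 of 21 in signalling and cytoskeleton and 8 of 8 in protein turnover. Over all measured members 98.0% followed, beside 0.659% of genes off chromosome 12. The lists, chosen with earlier results known, held none of the measured members that did not follow. Their counts are near the share of all members and show nothing particular to a function. The lists' median CAST slopes ran from 0.90 to 1.04, beside 0.97 over all measured members.

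Among RNA factors, Papola CAST values ran from 0 through a median of 211 to 486 in high-CAST cells, against 0 through 60.8 to 224 in balanced cells. Its 129 medians were 71.1 in high-CAST cells and 63.1 in balanced cells. The CAST slope was 0.96 ± 0.21 and the 129 slope 0.12 ± 0.11. Thus the CAST copy differed about as the region did, and the 129 copy differed by little. Dicer1, the ribonuclease that makes small RNAs, had CAST medians of 166 in high-CAST cells and 55.7 in balanced cells, with 129 medians of 79.4 in high-CAST cells and 67.5 in balanced cells. Ddx24, an RNA helicase, had CAST values of 77.0 to 365 in high-CAST cells, with a median of 162, against 12.6 to 168 in balanced cells, with a median of 49.9. All high-CAST cells lay above the balanced median for Ddx24. The translation factor Eif2b2 had a CAST slope of 1.15 ± 0.22, and Eif5, another one, had 0.80 ± 0.10.

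In signalling, Cdc42bpb, a kinase acting on the actomyosin cytoskeleton, had CAST medians of 197 in high-CAST cells and 65.3 in balanced cells and a slope of 1.02 ± 0.06. Above the balanced median lay 99.7% of high-CAST cells. Itpk1, an inositol phosphate kinase, had the widest CAST ratio among the 10 members with the largest sums, with medians of 164 in high-CAST cells and 36.3 in balanced cells and a ratio of means of 4.05 ± 0.79. Its 129 means were 56.6 in high-CAST cells and 40.1 in balanced cells, and its CAST slope was 1.01 ± 0.26. The Notch ligand Jag2 had a CAST slope of 0.82 ± 0.33 and the adaptor Traf3 one of 1.17 ± 0.35.

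Among genes of chromatin, repair and turnover, Rcor1, a corepressor subunit, had CAST means of 58.7 in high-CAST cells and 16.3 in balanced cells, a ratio of 3.61. Foxn3, a forkhead factor, had CAST means of 15.5 in high-CAST cells and 8.68 in balanced cells. Cep128, a centriolar protein, and Xrcc3, a recombination factor, both had slopes of 1.23, with SDs of 0.24 and 0.17 and CAST means under 10. The ubiquitin ligase component Ubr7 had CAST medians of 199 in high-CAST cells and 59.8 in balanced cells. Atxn3, a deubiquitinase, had a slope of 0.85 ± 0.18 and Dcaf5, a substrate receptor of a ubiquitin ligase, one of 1.13 ± 0.13. These slopes lay within the range of the other followers.

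Steeper slopes came with low levels or few cells. The highest, 1.74 ± 1.30, was that of Rin3, a factor of early endosomes, whose 4 highest cells held 24.3% of its CAST sum. Flvcr2, a membrane transporter, had 1.47 ± 0.48, with 12.4% of its sum in 4 cells. Among members with a CAST mean of at least 20, the highest slope was 1.17.

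The 3 measured members that were not followers were Gm6863, Ahnak2 and Crip1. Gm6863 (96922423 to 96923058), a processed pseudogene, was the only one whose slope was under 0.25 in all cells and under 0.5 in each lane, a rule met by 1 of 147 members (0.680%) and 81.0% of genes off chromosome 12. Its CAST values ran from 0 through a median of 57.8 to 148 in high-CAST cells, against 9.61 through 54.5 to 107.8 in balanced cells. Its 129 medians were 126 in high-CAST cells and 116 in balanced cells, and its CAST slope was -0.01 ± 0.08. Both groups overlapped throughout on both alleles. Of its row, 93.1% of 31-base stretches occur in transcripts of Naca, a subunit of the nascent polypeptide-associated complex on chromosome 10, so reads of both genes could not be separated by sequence and its value is uncertain.

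Ahnak2, a large scaffold protein, had a CAST slope of 0.08 ± 0.63 and CAST means of 5.85 in high-CAST cells and 14.7 in balanced cells. It was at 0 in 79.6% of high-CAST cells and 65.5% of balanced cells, and 4 cells held 30.9% of its CAST sum. Crip1, a LIM-domain protein, had a CAST slope of 0.47 ± 0.73, with CAST means of 5.31 in high-CAST cells and 4.36 in balanced cells. Without the 25 cells low in embryonic stem cell markers, the CAST means of Ahnak2, Crip1 and Rin3 were 4.86, 4.55 and 4.18, below the 5 required, so these genes were no longer measured. Their slopes were then 0.48, 0.43 and 1.44, and of the 144 members still measured all but Gm6863 followed. Among the 45 members with CAST means under 5, Smoc1, a secreted matrix protein, had -0.12 ± 0.39 and Acot1, an acyl-CoA thioesterase, -0.13 ± 0.45. Their lane SDs spanned slopes on both sides of 0, and 40.1% of the Acot1 row is shared, mostly with Acot2.

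**Figure D3:**
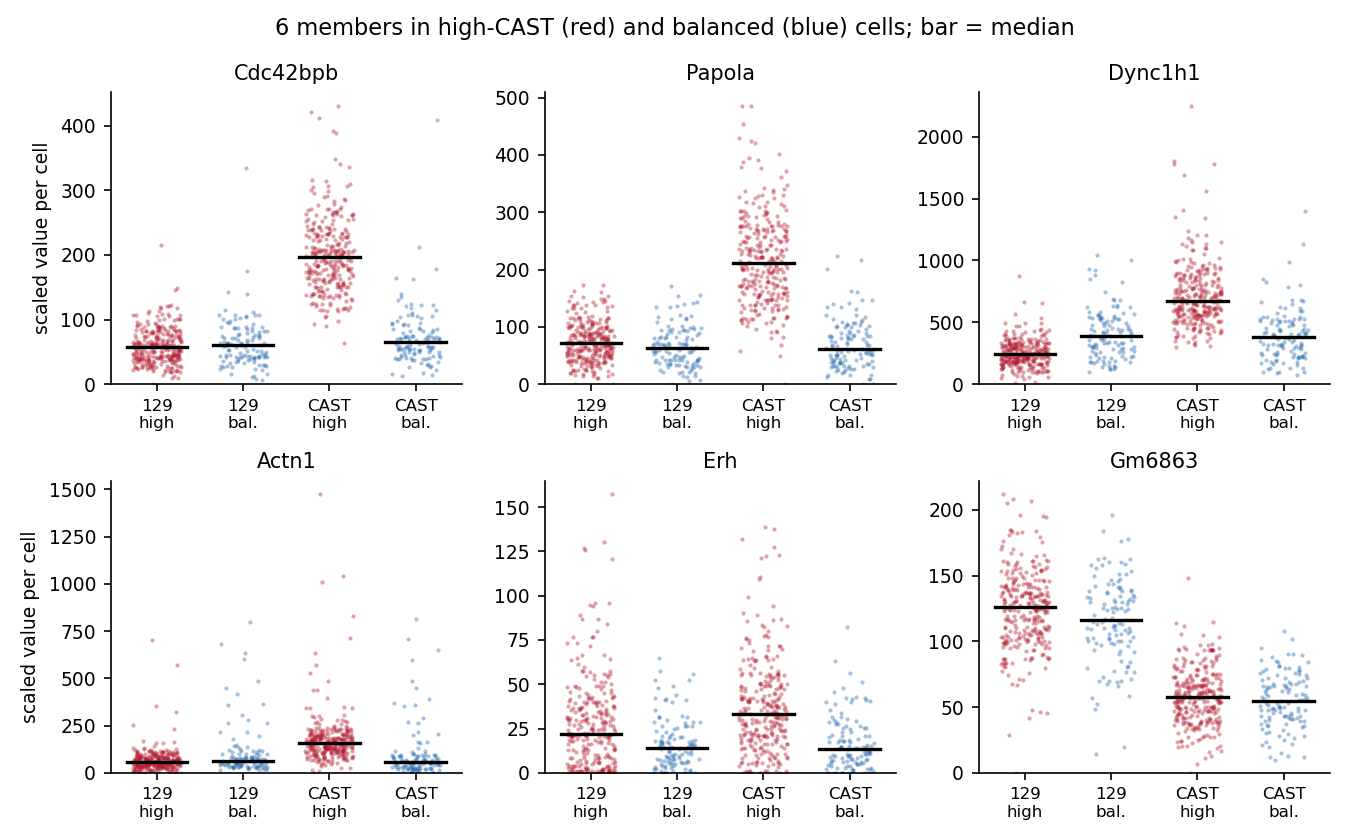
Scaled values per cell (vertical axes) of the 129 and the CAST allele of 6 members in high-CAST (red, left of each pair) and balanced (blue) cells; each point is 1 cell and bars are medians. CAST medians of Cdc42bpb are 197 in high-CAST and 65.3 in balanced cells, while those of Gm6863 are 57.8 in high-CAST and 54.5 in balanced cells, and the Dync1h1 129 median is lower in high-CAST cells.

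The 129 allele moved with CAST dosage for few members. A 129 slope of -0.25 or less, below 0 in each lane, was found for 9 of 115 members (7.83%), beside 3.60% of genes off chromosome 12. The 9 were Dync1h1, Ckb, Ylpm1, Zfyve1, Foxn3, Cinp, Tecpr2, Tcl1 and Ahnak2. A slope of 0.25 or more, above 0 in each lane, was found for 6 of 115 (5.22%), beside 4.77%, and these were Exd2, Erh, Pomt2, Rin3, Traf3 and Apopt1. Without lane 5 the number with a higher 129 value was 11, and with the regional level taken as a sum it was also 11. The share off chromosome 12 was not computed under these settings or without the cells low in embryonic stem cell markers. Without the 25 cells low in embryonic stem cell markers, 7 of the 9 lower genes still met the rule. Ckb and Ahnak2 did not, because their slope in lane 2 became 0.05 and 0.07, while over all lanes both slopes were further below 0 than with all cells.

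Dync1h1 had the largest sum of all members and lay under the members' median on both slopes. Its CAST values ran from 298 through a median of 676 to 2249 in high-CAST cells, against 75.7 through 380 to 1396 in balanced cells. Its 129 values ran from 7.81 through 241 to 872 in high-CAST cells, against 99.6 through 391 to 1042 in balanced cells. The CAST values were thus higher and the 129 values lower in high-CAST cells, with overlap on both alleles. The ratio of 129 means was 0.615 ± 0.041 and was between 0.576 and 0.674 in every lane. The CAST slope was 0.74 ± 0.06 and the 129 slope -0.43 ± 0.12. The sum of both alleles was 972 in high-CAST cells and 811 in balanced cells, a ratio of 1.20 ± 0.07 beside the members' median of 1.98. The 129 slope was -0.42 without the cells low in embryonic stem cell markers.

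Ckb, the brain-type creatine kinase, had CAST medians of 140 in high-CAST cells and 61.1 in balanced cells, and 129 medians of 48.5 in high-CAST cells and 64.9 in balanced cells. Its 129 slope was -0.38 ± 0.20, or -0.45 without the cells low in embryonic stem cell markers, and 36.8% of its row is shared, mostly with Gm12892 on chromosome 4. Ylpm1, a nuclear protein, had 129 medians of 25.5 in high-CAST cells and 32.5 in balanced cells and a 129 slope of -0.35 ± 0.15. Zfyve1, a protein of Golgi and endoplasmic reticulum membranes, had a 129 slope of -0.28 ± 0.13 and a CAST slope of 0.75 ± 0.25. Zfyve1 no longer met the rule for a lower 129 value in 3 alternatives. These were values limited to the 99th percentile, lane 6 left out, and cells outside both classes left out. For Ckb, Ylpm1 and Zfyve1 too the CAST slope was under the members' median.

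Actn1, the actin crosslinker alpha-actinin, had means that stood apart from its medians. Its 129 mean was 66.8 in high-CAST cells and 110 in balanced cells, whereas its 129 medians were 58.6 in high-CAST cells and 63.9 in balanced cells. Its 129 slope of -0.25 ± 0.27 became -0.09 without the 25 cells low in embryonic stem cell markers, and its CAST slope of 0.79 ± 0.22 became 0.91. Erh, a small conserved nuclear protein, had the opposite 129 pattern, with 129 medians of 22.2 in high-CAST cells and 14.3 in balanced cells and a 129 slope of 0.42 ± 0.23. Its CAST slope was 0.66 ± 0.14, and 89.2% of its row is shared, 53.4% with Gm10131 on chromosome 8, so the split of its reads between alleles is uncertain. Btbd7, an adaptor for a ubiquitin ligase, had a 129 slope of 0.25 ± 0.29.

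**Figure D4:**
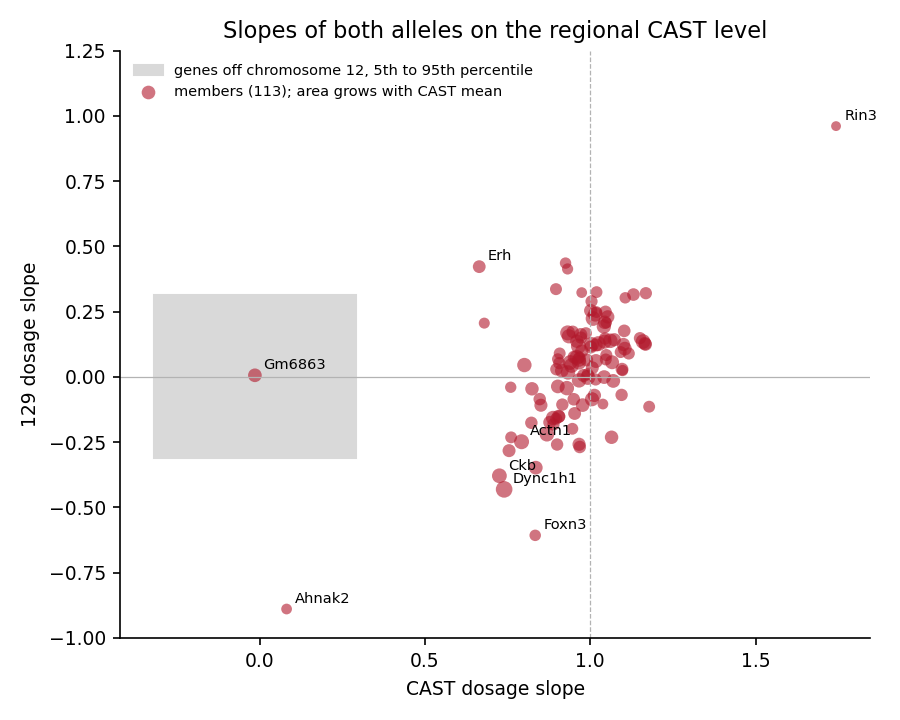
CAST dosage slope (horizontal axis) against 129 dosage slope (vertical axis) of the 113 members measured on both alleles; each point is 1 gene and its area grows with the CAST mean, and the grey box spans the 5th to 95th percentile of genes off chromosome 12. Most members lie near a CAST slope of 1 and a 129 slope of 0, Gm6863 lies in the box, and Dync1h1 and Ckb lie below.

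Balanced cells gave each gene's allele share apart from the skew. Over 78 members with at least 20 per cell from both alleles in balanced cells, the median 129 share was 25.3% in high-CAST cells and 49.9% in balanced cells. These medians follow from the classes, which were set by the 129 share of the other members. Only the departure of single genes from them is informative. In balanced cells 0 of 78 members were at or below 35% (0.00%), beside 4.22% of genes off chromosome 12, and 1 of 78 was at or above 65% (1.28%), beside 3.65%. The one was Gm6863, at 68.2% in high-CAST cells and 67.7% in balanced cells.

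The lowest shares were those of Kif26a, a kinesin-family protein, at 15.3% in high-CAST cells and 34.3% in balanced cells (mean under 20 in balanced cells), and of Ttc7b, a subunit of a lipid kinase complex at the plasma membrane, at 14.6% in high-CAST cells and 35.1% in balanced cells. Next were the formin Inf2, at 20.2% in high-CAST cells and 35.5% in balanced cells, and the noncoding or unclassified transcripts Gm37899 and B830012L14Rik. Those transcripts start at 109668869 and 109695586, within the imprinted Dlk1-Dio3 interval, and had 36.5% and 36.9% 129 in balanced cells. Their CAST slopes were 1.01 ± 0.32 and 1.04 ± 0.41, near the members' median. At the high end, Cinp, which binds a cyclin-dependent kinase, had 32.1% in high-CAST cells and 60.9% in balanced cells. Ppp2r5c, a phosphatase subunit, had 32.3% in high-CAST cells and 60.2% in balanced cells. Susd6, a membrane protein, had 40.8% in high-CAST cells and 59.9% in balanced cells, and Ston2, an endocytic adaptor, had 29.5% in high-CAST cells and 59.8% in balanced cells.

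**Figure D5:**
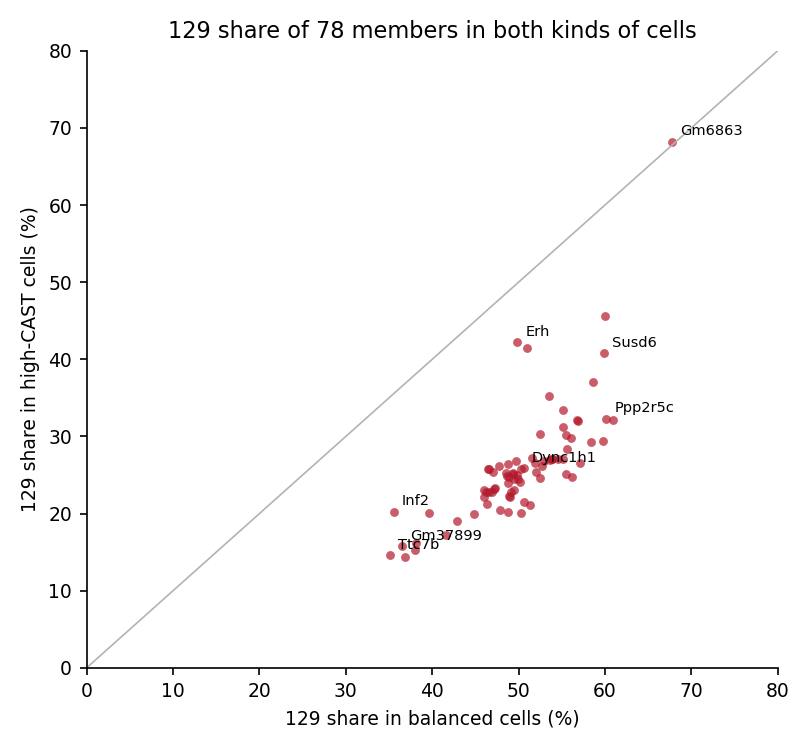
129 share in balanced cells (horizontal axis, %) against 129 share in high-CAST cells (vertical axis, %) of 78 members; each point is 1 gene and the grey line marks equal shares. All members but Gm6863 lie below the line, around medians of 25.3% in high-CAST cells and 49.9% in balanced cells. The classes were set by the 129 share of the other members, so these medians follow from the definition.

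The remaining 5 members carried the same values on both alleles up to a factor per cell, so no allele could be read from them. Their summed values still differed between the groups. Ahsa1, a cochaperone of Hsp90, had a ratio of high-CAST over balanced cells of 2.09 and a slope of 0.64 for the sum of both alleles. Mta1, a chromatin remodelling subunit, had a ratio of 1.58 and a slope of 0.55, and Crip2, a LIM-domain protein, a ratio of 1.43 and a slope of 0.71. The noncoding Snora28 and Mir3070b had slopes of 0.68 and 0.91. The 147 members with allele information and a CAST mean of at least 5 had a median slope of 0.72 for the sum of both alleles. Of these genes only Mir3070b lay above it.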

How the data were processed

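Per the submitters' processing notes, Bowtie 1.1.2 was used and mm10 was a genome build; allele assignment and scaling were not given in the sources used here. Each of the authors' deposited tables covers 1 allele and holds whole-number scores, apparently allele counts scaled to similar cell totals; each table has 117762 transcript rows and 419 cells. Read depth is therefore unknown, and no count test or interval was used. Here, each gene was represented by its row with the largest sum. Cells were rescaled by their autosomal sum over both alleles, leaving out chromosome 12 and ribosomal RNA rows. A row had no allele information where, after a factor per cell, the squared difference between alleles was under 0.5 of its total, which held for 544 of 11012 measured autosomal genes. Slopes used the regional CAST level of the other members, with the gene left out, and lanes 2 to 6 served as the spread. Cell classes were set for each gene without that gene. Thresholds for 129 slopes were chosen after the values were seen. Sequence sharing was counted as 31-base stretches of a row found in other genes' transcripts (GENCODE vM21), on either strand; strand-specific counting is not stated, so overlapping antisense genes may share reads. Named genes were those with the 10 highest and 10 lowest CAST slopes and the 10 largest sums among members with a CAST mean of at least 20, the 5 highest and 5 lowest 129 slopes among those with a 129 mean of at least 20, the 5 highest and 5 lowest 129 shares in balanced cells among those with at least 20 over both alleles, the first and last members by position, and up to 4 of each gene list; others were named after their values were seen, and 1 gene that this rule picks is not reported here. Members, gene lists and comparisons were chosen with earlier results of these data known. The code was tested on simulated data. Python 3.11.15, numpy 2.4.6, pandas 2.3.3 and matplotlib 3.10.9 were used.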

Additional observations from a re-analysis of the deposited data

How the results depend on the processing

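No paired analysis was possible because the cells form 1 sample and no pairs or cultures are named. None of the alternatives turned the direction of a median slope or ratio of the members, apart from the 129 ratio, which lay on both sides of 1. The median CAST slope was 1.01 with the regional level taken as a sum, and 0.971 to 0.996 with each lane left out in turn, which gave 0.037 to 0.061 for the median 129 slope. The number of followers was 86 of 87 with a CAST mean of at least 20 required, a lower number because fewer genes were measured. The stricter rule, a slope under 0.25 in all cells and under 0.5 in each lane, was met by 1 member as reported (Gm6863). The number meeting it was 2 with all rows of a gene summed and 3 with no requirement on the mean. It was 0 without members sharing more than 20% of their row, and 1 to 2 with a lane left out (2 without lane 5). Measured members that missed the rule for followers were a different set. With all rows of a gene summed they were Ahnak2, Crip1, Gm6863, Smoc1 and Tcl1. Without members sharing more than 20% of their row they were Ahnak2 and Crip1. The median CAST ratio was 2.82 with no requirement on the mean, and 2.90 to 3.00 with a lane left out; the 129 ratio was 0.976 to 1.01. Among slopes of named genes, 2 CAST values and 1 129 value moved beyond their lane SD, all with the rows of a gene summed (CAST slopes of Eif5 at 0.91 and Xrcc3 at 1.00, 129 slope of Tdp1 at 0.02). The number of members with a lower 129 value ran from 4 (mean of at least 20) to 11 (regional level as a sum). The number with a higher one ran from 1 (mean of at least 20) to 21 (no requirement on the mean). Dync1h1 was among the lower ones under each alternative. Without cells outside both classes 6 genes had a lower 129 value, and Zfyve1, Cinp and Tecpr2 were not among them. No alternative was run on genes off chromosome 12. The counts of this section therefore have no background beside them and cannot be read as particular to the members. Alternatives leaving out cells outside both classes, of extreme total or low in embryonic stem cell markers, and the one requiring a mean of 5 in balanced cells, were added after seeing the data. Values under about 5 per cell limit what a slope can show.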
